A study of Sus scrofa with 6 samples.

Results

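The transcripts described here are those of 8 genes of sterol synthesis and of its control by the sterol regulatory element-binding proteins (SREBPs): the enzyme genes HMGCS1, IDI1, FDFT1, SQLE and LSS, the transcription factor genes SREBF1 and SREBF2, and INSIG1, whose protein holds the SREBPs back. The members were taken by gene symbol from a list chosen with earlier results of these data known. All 8 were found among the 13288 genes of the table. The libraries came from ventricular myocardium, with 3 sham and 3 DAC minipigs and 1 library for each animal. All 6 were male Tibetan minipigs, and no genetic modification is named for any of them. In the DAC group the descending aorta was constricted, which raises the load against which the left ventricle ejects, whereas the sham group had its chest opened without constriction, and tissue of both groups was taken at week 12 after surgery. The age of the animals is not given in the sources used here. Samples are named sham replicates 1 to 3 and DAC replicates 4 to 6, and levels are in FPKM, fragment numbers corrected for gene length and library size, a unit that allows levels to be compared between genes. The number of reads behind each value is unknown, so no counting error is given, and the precision of each mean rests on the spread between 3 minipigs.

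Cholesterol is made from acetyl-CoA through mevalonate. HMGCS1 makes HMG-CoA, from which mevalonate is formed, and IDI1 interconverts the isoprenoid building blocks. FDFT1, squalene synthase, is the first enzyme committed to sterols, SQLE adds oxygen to squalene, and LSS closes the rings to give lanosterol, which a further series of enzymes turns into cholesterol. The genes of these enzymes are classic SREBP2 targets. When the membrane of the endoplasmic reticulum is rich in sterols, the INSIG proteins hold SCAP and the SREBP precursors there, and when sterols are scarce, SCAP carries the precursors to the Golgi, where they are cleaved and the freed factor enters the nucleus. SREBP2, from SREBF2, is best known for sterol genes and SREBP1c, from SREBF1, for fatty acid genes. INSIG1 is itself an SREBP target, which closes a feedback loop. Cardiomyocytes can make cholesterol and also take it up from lipoproteins. Transcript levels do not show how much SREBP protein was cleaved.

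None of the 8 genes passed the test between the DAC and sham groups. Genes were called differentially expressed (DEGs) at an unadjusted P under 0.05 in limma's moderated test on log2(FPKM + 1). Each log2 difference below is on this scale, which understates changes of low genes. Percentages compare mean FPKM directly, so the 2 measures of a gene do not convert into each other. The count of members was 0 upregulated and 0 downregulated of 8, where 3.25% of the 11029 genes tested were upregulated and 5.27% downregulated, and 939 genes (8.51%) were called in either direction. After Benjamini-Hochberg adjustment of limma's P over the 11029 genes tested, 0 stayed under 0.05, and the lowest adjusted P was 0.106, so that each DEG below holds at the unadjusted threshold alone. The mean log2 level was lower in the DAC group for 5 members and higher for 3, and the median log2 difference over the 8 was -0.14, where the median over all genes tested was -0.016. Of the 8, only FDFT1 and LSS had groups that did not overlap, both with the DAC group lower. Such a separation was seen in 8.91% of all genes tested with the DAC group lower and in 6.01% with the DAC group higher.

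**Figure D1:**
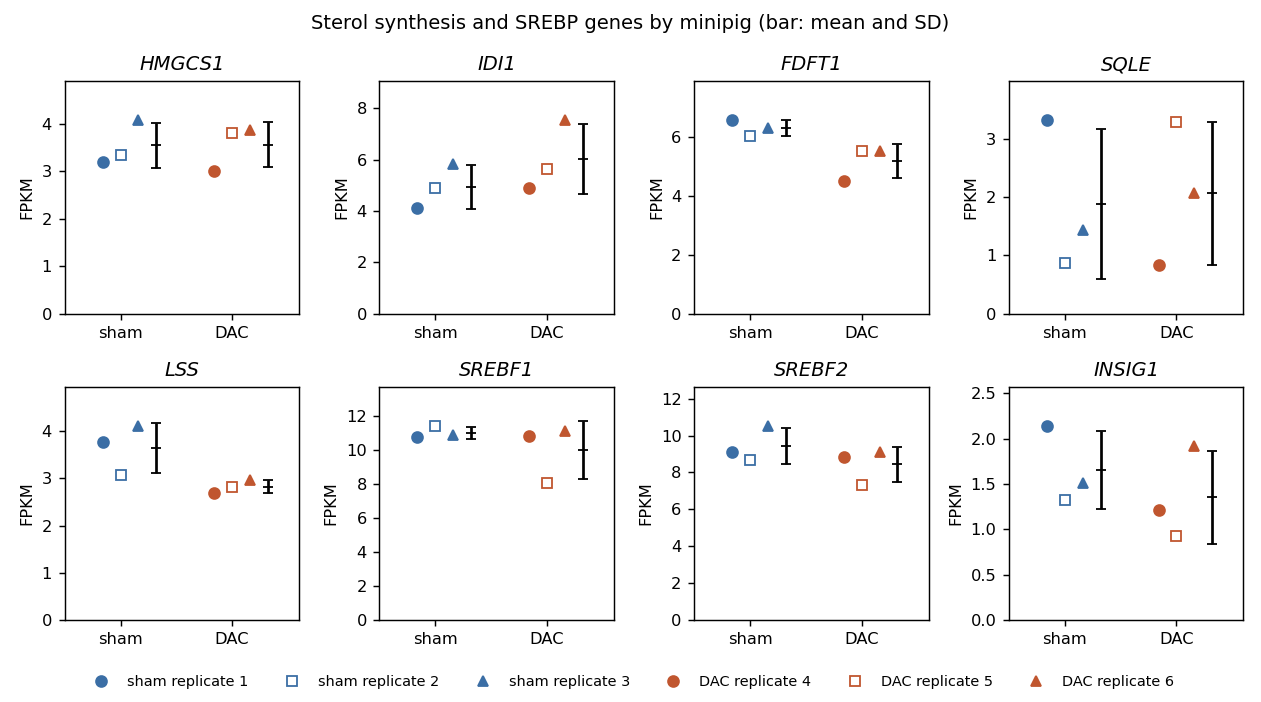
FPKM of the 8 genes (vertical axes from 0, each gene on its own scale) in 3 sham and 3 DAC minipigs, with 1 marker per minipig and the group mean and SD beside the points. FDFT1 and LSS are the genes whose DAC points all lie below the sham points, and DAC replicate 5 is lowest for SREBF1, SREBF2 and INSIG1. SQLE spans from 0.867 to 3.33 FPKM in the sham group and from 0.843 to 3.29 FPKM in the DAC group.

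By level the members fell into an order with the transcription factors on top. Over all 6 samples the mean was 10.5 FPKM for SREBF1, 8.93 for SREBF2, 5.74 for FDFT1, 5.48 for IDI1, 3.56 for HMGCS1, 3.24 for LSS, 1.97 for SQLE and 1.504 for INSIG1. Between most neighbours in this order the samples overlapped. SREBF2 lay above FDFT1 without overlap, as its lowest sample had 7.33 FPKM and the highest FDFT1 sample 6.57, and IDI1 lay just above HMGCS1, with a lowest sample of 4.11 and a highest HMGCS1 sample of 4.09. Among all genes tested, the mean level of SREBF1 was at percentile 68.1 and that of INSIG1 at percentile 8.88.

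HMGCS1 (ENSSSCG00000016872, chromosome 16, 27936217 to 27957194, minus strand) encodes the enzyme that makes HMG-CoA. It was measured at 3.21, 3.36 and 4.09 FPKM in the sham group and at 3.02, 3.81 and 3.87 FPKM in the DAC group. The groups covered nearly the same range. The means were 3.55 ± 0.474 (SD, n = 3) and 3.57 ± 0.477 FPKM (SD, n = 3), and the log2 difference was 0.01 with a 95% confidence interval from -0.30 to 0.31 (limma P = 0.968, adjusted P = 0.992, exact permutation P = 1). The interval admits changes of that size in either direction.

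IDI1, the isomerase (ENSSSCG00000029066, chromosome 10, 68534796 to 68539279, plus strand), had a positive difference, the largest of the 8 when all samples were used. It had 4.11, 4.90 and 5.82 FPKM in the sham group and 4.90, 5.61 and 7.55 FPKM in the DAC group. The groups overlapped, and DAC replicate 6 alone lay above all sham samples. The mean went from 4.94 ± 0.856 to 6.02 ± 1.37 FPKM (SD, n = 3 each), 21.9% above the sham mean, with a log2 difference of 0.23 (SE 0.17, 95% confidence interval -0.18 to 0.64, limma P = 0.221, adjusted P = 0.719, exact permutation P = 0.4). The difference was 0.083 when DAC replicate 6 and 0.13 when sham replicate 1 was dropped. The locus overlaps the 5′ end of WDR37 on the opposite strand, for which the log2 difference was -0.05. The sources used here do not say whether the counting used strand, and without it reads of the shared stretch could not be told apart.

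FDFT1, the enzyme at the branch towards sterols (ENSSSCG00000026044, chromosome 14, 14967273 to 15104179, plus strand), had 6.57, 6.01 and 6.30 FPKM in the sham group and 4.50, 5.52 and 5.51 FPKM in the DAC group. Every DAC sample lay below every sham sample, and DAC replicate 4 was the lowest. The DAC mean of 5.18 ± 0.585 FPKM was 17.7% under the sham mean of 6.30 ± 0.281 FPKM (SD, n = 3 each), a log2 difference of -0.24 (SE 0.11, 95% confidence interval -0.51 to 0.02). It was -0.16 when DAC replicate 4 was dropped. With all samples the difference did not pass the test (limma P = 0.0656, adjusted P = 0.596), and the exact two-sided permutation P was 0.1, the smallest that 3 against 3 samples can give. The gene's span in the table, 137 kb, is longer than its RefSeq span of 34.4 kb on Sscrofa11.1, and it covers CTSB on the opposite strand, at 57.2 to 71.7 FPKM with a log2 difference of 0.07, and part of NEIL2 on the same strand, at 1.90 to 3.79 FPKM with a log2 difference of -0.20. FDFT1 is therefore uncertain to the extent that shared reads were split among these genes, which was not tested.

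SQLE, the epoxidase (ENSSSCG00000005970, chromosome 4, 14669791 to 14700126, minus strand), varied more within the groups than any other member. The sham group had 3.33, 0.867 and 1.44 FPKM and the DAC group 0.843, 3.29 and 2.07 FPKM. Each group thus held a sample near 3.3 FPKM and a sample near 0.85 FPKM. The highest sample was 3.84 times the lowest in the sham group and 3.91 times the lowest in the DAC group, while the means were 1.88 ± 1.29 and 2.07 ± 1.22 FPKM (SD, n = 3 each). The log2 difference was 0.10 with a 95% confidence interval from -0.82 to 1.02 (limma P = 0.805, adjusted P = 0.956, exact permutation P = 1). The difference between the groups was small beside the differences between animals of the same group.

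LSS, lanosterol synthase (ENSSSCG00000021418, plus strand of a scaffold that is not placed on a chromosome), had 3.77, 3.08 and 4.11 FPKM in the sham group and 2.69, 2.82 and 2.97 FPKM in the DAC group. The groups did not overlap, with sham replicate 2 the nearest to the DAC samples, which lay close together. The mean was 3.65 ± 0.527 FPKM in the sham group and 2.83 ± 0.144 FPKM in the DAC group (SD, n = 3 each), a level 22.6% lower, and the log2 difference was -0.28 (SE 0.12, 95% confidence interval -0.56 to 0.01). LSS had the smallest P of the 8 members and missed the threshold (limma P = 0.0550, adjusted P = 0.592, exact permutation P = 0.1). Without sham replicate 2, the lowest of its group, LSS passed the unadjusted threshold, with a log2 difference of -0.37 and a limma P of 0.0220. Over the fits with 1 sample left out, the difference was as small as -0.21 and limma's P as high as 0.177.

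Summed over the 5 enzymes, the level was 21.0, 18.2 and 21.8 FPKM in the sham group and 16.0, 21.1 and 22.0 FPKM in the DAC group. The sums overlapped widely, with DAC replicate 4 the lowest of the 6 samples and DAC replicate 6 the highest. In the pathway order, the enzymes did not share a direction, since the differences of HMGCS1, IDI1 and SQLE were positive and those of FDFT1 and LSS negative. The signs of HMGCS1 and SQLE turned when single samples were left out.

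**Figure D2:**
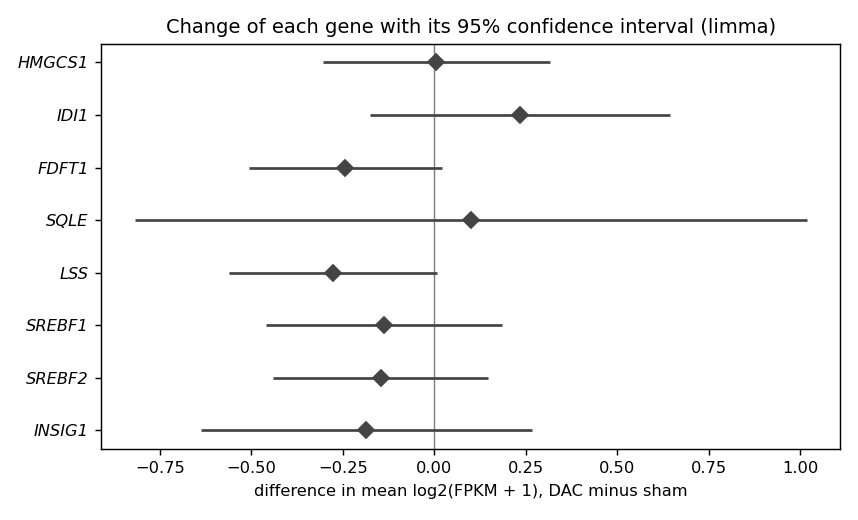
Difference in mean log2(FPKM + 1), DAC minus sham, for each of the 8 genes (diamonds), with limma's 95% confidence interval (lines) and a vertical line at 0. Each interval includes 0, those of LSS and FDFT1 end just above it at 0.01 and 0.02, and that of SQLE is the widest, from -0.82 to 1.02.

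SREBF1, which encodes SREBP1 (ENSSSCG00000033626, chromosome 12, 60733907 to 60751265, plus strand), had 10.8, 11.4 and 10.9 FPKM in the sham group and 10.9, 8.06 and 11.2 FPKM in the DAC group. DAC replicate 5 stood below the other samples, which lay between 10.8 and 11.4 FPKM. The means were 11.0 ± 0.347 and 10.0 ± 1.71 FPKM (SD, n = 3 each), with a log2 difference of -0.14 (95% confidence interval -0.46 to 0.18, limma P = 0.345, adjusted P = 0.789, exact permutation P = 0.5). Without DAC replicate 5 the difference was -0.0028. The end of the locus overlaps RAI1 on the opposite strand, at 5.17 to 7.90 FPKM, and was treated as uncertain there.

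SREBF2, which encodes SREBP2 (ENSSSCG00000026092, chromosome 5, 6719487 to 6784672, minus strand), had 9.10, 8.69 and 10.5 FPKM in the sham group and 8.84, 7.33 and 9.13 FPKM in the DAC group. The groups overlapped, and DAC replicate 5 was again the lowest. The means were 9.44 ± 0.962 and 8.43 ± 0.967 FPKM (SD, n = 3 each), with a log2 difference of -0.15 (95% confidence interval -0.44 to 0.15, limma P = 0.278, adjusted P = 0.754, exact permutation P = 0.5), which was -0.06 without DAC replicate 5. Within each minipig SREBF1 was above SREBF2, by a ratio of 1.19, 1.32 and 1.04 in the sham group and of 1.23, 1.10 and 1.22 in the DAC group. The mean ratio was 1.18 in both groups, with an SD of 0.140 in the sham group and 0.0727 in the DAC group (n = 3 each).

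INSIG1 (ENSSSCG00000016420, chromosome 18, 2885611 to 2898767, minus strand), the sterol-sensing anchor and an SREBP target, was the least abundant member. Its levels were 2.14, 1.32 and 1.51 FPKM in the sham group and 1.22, 0.921 and 1.92 FPKM in the DAC group. DAC replicates 4 and 5 lay below every sham sample and DAC replicate 6 above sham replicates 2 and 3. The mean was 1.66 ± 0.428 FPKM in the sham group and 1.35 ± 0.512 FPKM in the DAC group (SD, n = 3 each), with a log2 difference of -0.19 (SE 0.19, 95% confidence interval -0.64 to 0.27, limma P = 0.366, adjusted P = 0.795, exact permutation P = 0.4). Without DAC replicate 5 it was -0.05.

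For most members the lowest sample was DAC replicate 4 or 5, each for different genes. DAC replicate 4 was the lowest of the 6 samples for 4 members, all of them enzymes (HMGCS1, SQLE, FDFT1 and LSS), DAC replicate 5 for 3 members (SREBF1, SREBF2 and INSIG1), and sham replicate 1 for IDI1. For SQLE this lowest level, 0.843 FPKM, was close to the 0.867 FPKM of sham replicate 2. Over the 19 tested sterol synthesis enzymes, members included, the minima were more spread. Sham replicates 1, 2 and 3 were lowest for 2, 3 and 3 enzymes, and DAC replicates 4, 5 and 6 for 6, 4 and 1. The share over all genes tested was not computed. DAC replicate 6 was the lowest for 0 members, and its levels of HMGCS1, SREBF1, SREBF2, INSIG1 and SQLE lay within the sham range. The highest sample was sham replicate 1 or 3 for 3 members each, sham replicate 2 for SREBF1 and DAC replicate 6 for IDI1. As the data are from whole tissue, fewer cells of a type that makes these transcripts and less RNA per cell cannot be told apart.

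The other enzymes of the route were read from the same fit, from a list of 16 genes, of which 15 were in the table and 14 were tested. No enzyme of this list was a DEG, and the median log2 difference was -0.025. The median lay between -0.24 at a minimum of 5 FPKM, where 2 genes were tested, and 0.035, and 1 enzyme was called when DAC replicate 5 was dropped. Together with the 5 member enzymes, 0 of 19 were upregulated and 0 downregulated, 9 had a lower and 10 a higher mean log2 level in the DAC group, and FDFT1 and LSS were the 2 whose groups separated. ACAT2, the cytosolic thiolase at the start of the route, stayed under 1 FPKM and was not tested, and IDI2 was not analysed here. The most abundant of these enzymes were TM7SF2, a sterol reductase, with a log2 difference of -0.41 (exact permutation P = 0.7), CYP51A1, lanosterol demethylase, with -0.07 (P = 0.7), and ERG28, a scaffold of the demethylation complex, with 0.54 (P = 0.6). TM7SF2 had 8.64, 4.53 and 8.18 FPKM in the sham group and 8.68, 1.82 and 6.65 FPKM in the DAC group, and ERG28 had 5.19, 0.875 and 4.41 FPKM against 4.55, 4.88 and 4.94 FPKM. Each of these differences came with 1 low sample, DAC replicate 5 for TM7SF2 and sham replicate 2 for ERG28, and without it the log2 difference was 0.13 for TM7SF2 and 0.000625 for ERG28.

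**Figure D3:**
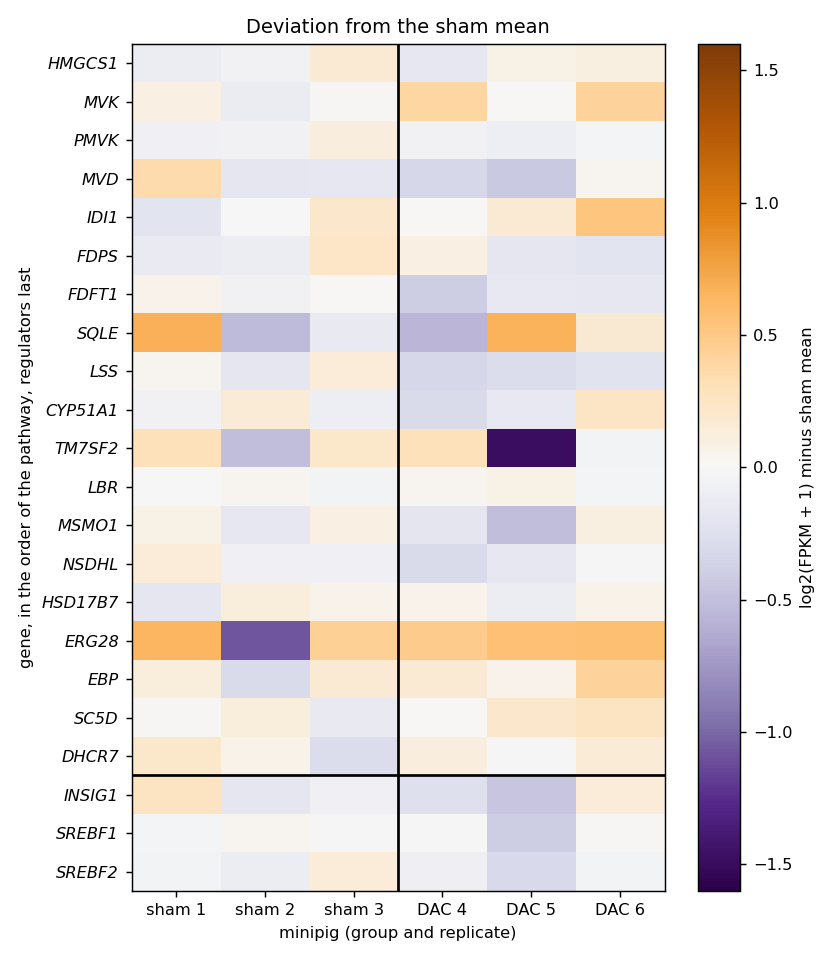
Log2(FPKM + 1) minus the sham mean of each gene (colour, orange above and purple below) for the 19 tested enzymes in the order of the pathway and the 3 regulators (rows) in the 6 minipigs (columns, sham left of the line). SQLE, TM7SF2 and ERG28 hold the strongest colours, which fall in single animals of both groups, and FDFT1 and LSS are the rows whose 3 DAC columns all lie below the 3 sham columns.

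The spread between animals of the same group was wide for some genes of the route and narrow for others. The within-group SD of log2(FPKM + 1) was 0.62 for SQLE, at percentile 97.2 of all genes tested and at percentile 96.1 of the 1134 genes whose mean level was within 20% of that of SQLE, for which the median SD was 0.18. At the other end, the SD was 0.11 for FDFT1 (percentile 19.6) and 0.12 for LSS (percentile 27.5), while HMGCS1, SREBF1 and SREBF2 lay between percentiles 35.8 and 47.6 and IDI1 and INSIG1 at 70.9 and 76.1. Over the 8 lists of sterol, SREBP and related genes, 12 of the 104 genes tested were among the 10% of all genes with the widest spread. The plot of SD against level shows the 8 members among all genes tested.

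**Figure D4:**
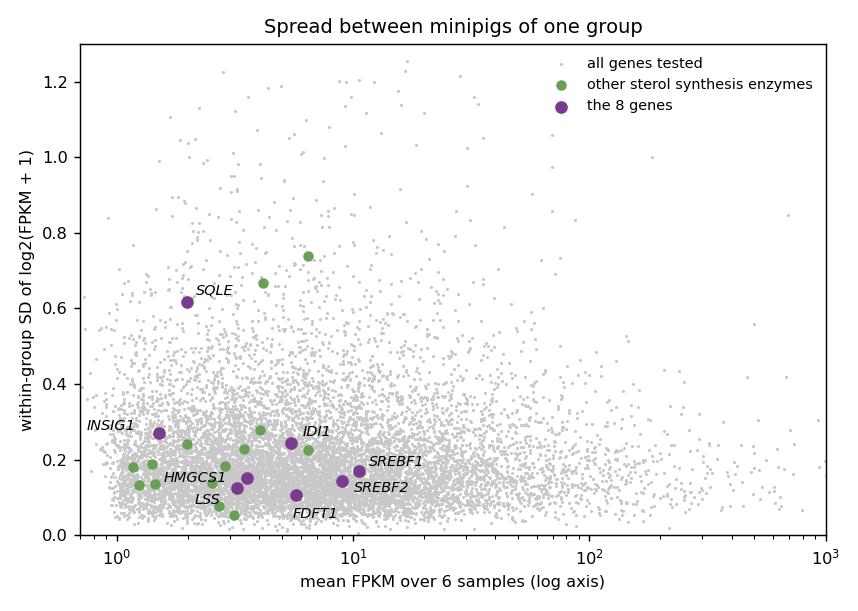
Within-group SD of log2(FPKM + 1) (vertical axis) against mean FPKM over 6 samples (horizontal log axis) for all 11029 genes tested (grey), the other sterol synthesis enzymes (green) and the 8 genes (purple). SQLE (0.62) lies above most genes of its level, whereas FDFT1 (0.11) and LSS (0.12) lie in the lower part of the cloud.

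The machinery that escorts, restrains and cleaves the SREBPs or degrades sterol-regulated proteins of the endoplasmic reticulum was read from a list of 16 genes, of which 14 were in the table and tested. Of these, 0 were upregulated and 1 was downregulated, with a median log2 difference of -0.028. The downregulated gene was PAQR3, a Golgi protein reported to anchor SCAP and the SREBPs there, with 6.53, 5.64 and 6.63 FPKM in the sham group and 3.57, 5.14 and 4.80 FPKM in the DAC group. All DAC samples lay below the sham samples (log2 difference -0.41, SE 0.14, limma P = 0.0229, adjusted P = 0.548, exact permutation P = 0.1). The call was lost when single samples were left out, as limma's P was 0.0657 when sham replicate 1, 0.0699 when sham replicate 3 and 0.0578 when DAC replicate 4 was dropped. The most abundant members of the list, at 24.3 to 42.8 FPKM, were VCP, an extraction ATPase, AUP1, its partner in degradation from the endoplasmic reticulum, and MARCHF6, a ubiquitin ligase that acts on SQLE protein, with log2 differences of -0.06, -0.14 and -0.11 and no call. SCAP and INSIG2, named after their values were seen, differed by -0.12 (exact permutation P = 0.2) and 0.20 (P = 0.3). SCAP had 8.12 to 9.09 FPKM in the sham group and 7.58 to 8.48 FPKM in the DAC group. MBTPS2 and ERLIN1 were not analysed here.

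Sterol-regulated targets outside the synthesis route gave a list of 11 genes, of which 8 were in the table and 6 were tested, with 0 upregulated, 0 downregulated and a median log2 difference of -0.0066, which lay between -0.076 and 0.092 with 1 sample left out. The most abundant genes of the list, ACSS2, TMEM97 and LPIN1, had log2 differences of 0.03, -0.08 and -0.04 and were not called. TMEM97 was called when sham replicate 2, its lowest sample, was dropped (log2 difference -0.35, at a limma P of 0.0392). ACSS2, the cytosolic enzyme that makes acetyl-CoA from acetate, was at 71.0 to 89.5 FPKM far above every member.

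For SREBP1, 13 fatty acid synthesis genes were listed, 11 were in the table and 10 were tested. Of the 10, 0 were upregulated and 0 downregulated, 7 had a positive and 3 a negative difference, and the median log2 difference was 0.092. The most abundant were MID1IP1, which activates acetyl-CoA carboxylase (log2 difference 0.40, exact permutation P = 0.3), ACACA, that carboxylase (0.22, P = 0.2), and ACLY, ATP citrate lyase (-0.13, P = 0.4). MID1IP1 had 9.37, 10.3 and 10.0 FPKM in the sham group and 13.4, 9.77 and 18.0 FPKM in the DAC group, where DAC replicate 5 lay among the sham samples. When that sample was dropped, MID1IP1 passed the threshold (log2 difference 0.60, at a limma P of 0.00663), as it did with sample weights (0.46, at a limma P of 0.0460), and it differed by 0.19 when DAC replicate 6 was dropped.

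Of the 27 listed genes of cholesterol uptake, intracellular transport and esterification, 24 were in the table and 21 were tested, with 0 upregulated, 1 downregulated and a median log2 difference of -0.074. This count was not stable and ran from 1 to 3 over the alternatives, with 1 upregulated and 2 downregulated without a filter and 2 upregulated and 1 downregulated without mitochondrially encoded genes, and the median lay between -0.094 and -0.0046. The downregulated gene was GRAMD1A, which carries accessible cholesterol from the plasma membrane to the endoplasmic reticulum. Its levels were 8.83, 8.45 and 10.6 FPKM in the sham group and 5.29, 5.28 and 6.54 FPKM in the DAC group. The groups lay well apart, with a mean of 9.28 ± 1.12 against 5.71 ± 0.724 FPKM (SD, n = 3 each), 38.5% lower in the DAC group (log2 difference -0.62, SE 0.13, limma P = 0.00198, adjusted P = 0.391, exact permutation P = 0.1). It remained a DEG under every alternative run. The most abundant of the list were NCEH1, a cholesteryl ester hydrolase, TSPO, an outer mitochondrial membrane protein that binds cholesterol, and NPC2, which carries cholesterol within the lysosome. Their log2 differences were 0.08, -0.44 and 0.06 and none was called. The difference of TSPO rested on sham replicate 1, which had 56.5 FPKM where the other samples had 20.7 to 31.4 FPKM. It was -0.093 when that sample was dropped, and it passed the threshold when sham replicate 3 was dropped (-0.73, at a limma P of 0.0345).

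The liver X receptors, which sense oxysterols and drive cholesterol efflux, gave a list of 15 genes, of which 13 were in the table and 12 were tested. It held 1 upregulated and 0 downregulated genes, with a median log2 difference of -0.071. The mean log2 level was higher in the DAC group for 2 genes, PLTP and APOE, and lower for 10. Over all genes tested, 53.4% were lower. Among the 10 were ABCA1 (-0.02) and ABCG1 (-0.35), named after their values were seen and not called. NR1H3, liver X receptor alpha, stayed under 1 FPKM and was not tested. A second gene was called when sham replicate 1 or DAC replicate 6 was dropped, and the median was -0.16 when DAC replicate 5 was dropped. PLTP, the phospholipid transfer protein, had 2.99, 2.35 and 2.29 FPKM in the sham group and 4.91, 5.18 and 5.32 FPKM in the DAC group. Every DAC sample was above every sham sample, and the mean rose from 2.55 ± 0.390 to 5.14 ± 0.206 FPKM (SD, n = 3 each), 102% above the sham mean (log2 difference 0.80, SE 0.12, limma P = 0.000222, adjusted P = 0.222, exact permutation P = 0.1). The call was kept under every alternative that tested the gene, which the minimum of 5 FPKM did not. The most abundant genes of this list were RXRG, the partner receptor retinoid X receptor gamma, LPCAT3, which remodels membrane phospholipids, and NR1H2, liver X receptor beta, with log2 differences of -0.04, -0.03 and -0.23. NR1H2 was lower in each DAC sample, at 16.9 to 19.8 FPKM against 20.1 to 23.2 FPKM, but did not pass the test (limma P = 0.0738, exact permutation P = 0.1). APOE, named after its values were seen, had the largest log2 difference of the list, 0.93, without passing the test (limma P = 0.121, exact permutation P = 0.3), as DAC replicate 5 held 7.57 FPKM and the other 5 samples between 0.601 and 2.94 FPKM.

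Branches that leave the mevalonate route before FDFT1, towards ubiquinone, dolichol and prenylated proteins, were read from 22 listed genes, of which 19 were in the table and tested. With all samples 0 were upregulated and 0 downregulated, and the median log2 difference was -0.039. With 1 sample left out, 0 to 3 were called, all of them downregulated, the most without DAC replicate 5. The most abundant were genes of ubiquinone synthesis. COQ8A had a log2 difference of -0.36 (exact permutation P = 0.2), COQ9 of -0.32 (P = 0.1) and COQ7 of 0.07 (P = 0.7). COQ8A passed the threshold when sham replicate 2 (-0.45, at a limma P of 0.0476) or DAC replicate 5 (-0.45, at a limma P of 0.0404) was dropped, and COQ9 when DAC replicate 5 was dropped (-0.44, at a limma P of 0.0172). Over the fits with 1 sample left out, the difference was as small as -0.20 for COQ8A and -0.17 for COQ9. Limma's P rose to 0.193 and 0.172 in these fits. COQ9 was at 128 to 136 FPKM in the sham group and at 85.9 to 126 FPKM in the DAC group, without overlap and with DAC replicate 4 the lowest.

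**Figure D5:**
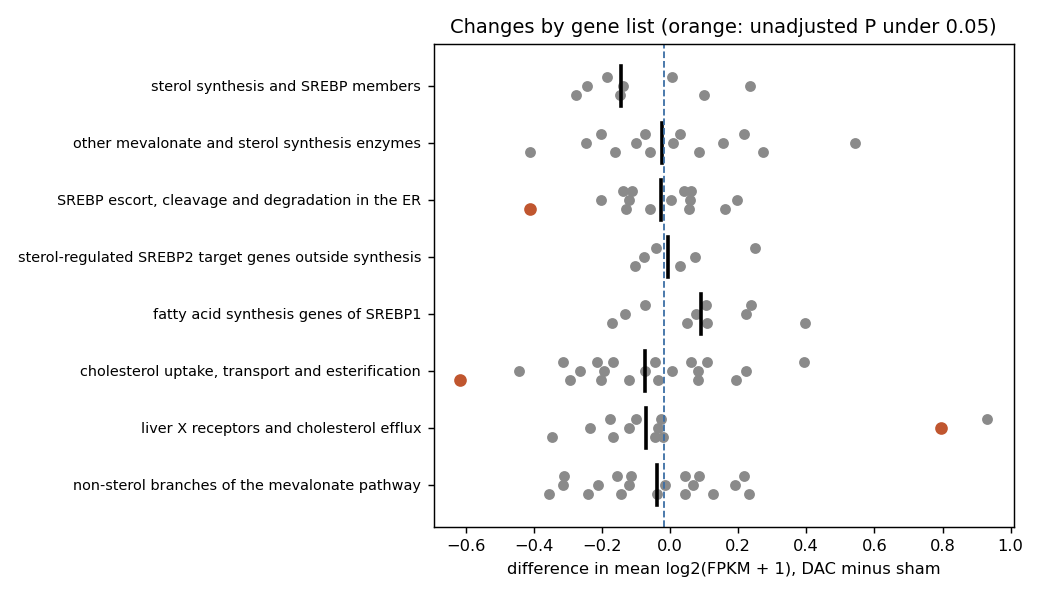
Difference in mean log2(FPKM + 1), DAC minus sham (horizontal axis), of each tested gene of the 8 lists (points, orange for an unadjusted P under 0.05 in limma), with the list median (black bar) and the median of all genes tested (dashed line, -0.016). The orange points are PAQR3 (-0.41), GRAMD1A (-0.62) and PLTP (0.80), and the 8 genes in the top row are all grey.

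The genes whose pattern over the 6 samples was most like the average of the 8 members were found by Pearson's r with the mean of their standardised log2 levels. They were IBA57 (r = 0.99), a mitochondrial iron-sulfur cluster assembly factor, SWSAP1 (r = 0.99), a DNA repair factor, GHITM (r = 0.98), a protein of the inner mitochondrial membrane, IDUA (r = 0.98), a lysosomal enzyme, and TMEM185A (r = 0.98), a transmembrane protein. With 6 samples a high r is easily reached, and 140 of 9953 genes with a symbol (1.41%) had an r above 0.9. The average profile was highest in sham replicate 3 and lowest in DAC replicate 4. Like the members, none of these 5 genes passed the test between the groups.

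Of the measures of the whole tissue, the mitochondrially encoded share and the sum of the fibroblast markers separated the groups, and the sums of the other cell type markers overlapped. The mitochondrially encoded genes held 24.0, 25.1 and 25.3% of all FPKM in the sham group and 27.2, 32.8 and 27.1% in the DAC group, highest in DAC replicate 5, in which SREBF1, SREBF2 and INSIG1 were lowest. Cardiomyocyte markers were abundant in all samples, with a sum of 14416 to 15119 FPKM in the sham group and 13596 to 16648 FPKM in the DAC group, and 1 of 8 tested was downregulated and 0 upregulated. Fibroblast markers gave 4 upregulated and 0 downregulated of 8, with sums of 532 to 617 against 743 to 847 FPKM. The upregulated ones were COL1A1, COL1A2, COL3A1 and LUM. PDGFRA (log2 difference 0.24), DPT (0.08), DCN (-0.01) and TCF21 (-0.02) were not called. Endothelial markers gave 1 upregulated and 2 downregulated of 8 (145 to 204 against 125 to 189 FPKM), smooth muscle and pericyte markers 1 and 0 of 6 (133 to 161 against 160 to 180 FPKM), and leukocyte markers 0 and 1 of 7 (48.9 to 53.7 against 39.9 to 53.8 FPKM). Adipocyte and hepatocyte markers, whose cells are known for lipid synthesis, summed to 35.3 to 44.0 and 2.21 to 2.93 FPKM in the sham group. In the DAC group the sums were 30.2 to 42.8 and 2.17 to 2.60 FPKM. Of these markers 0 were called, but only 2 for adipocytes, FABP4 and PLIN4, and 1 for hepatocytes, CYP2E1, were tested. ADIPOQ and CIDEC, which define adipocytes, stayed at or under 0.602 and 0.832 FPKM. ALB, which defines hepatocytes, stayed under 1 FPKM. The red blood cell markers summed to 11.2 to 38.5 FPKM in the sham group and to 5.86 to 38.2 FPKM in the DAC group. The part of these measures in the levels of the 8 genes was not tested.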

How the data were processed

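Ventricular RNA was extracted with TRIzol, prepared with a NEBNext Ultra kit, and read from both ends on an Illumina HiSeq instrument. The submitters' processing notes name HISAT2 and the build susScr11. The program that made the values and its use of strand are not given in the sources used here. The authors deposited FPKM per gene, 1 column per minipig, and the highest sample of a listed gene is never under 0.500 FPKM. Columns sum to 281377 to 308771 FPKM. Depth is unknown, since the values hold no visible whole-read steps (at most 9 of 13124 or more genes had the same log2 ratio between a pair of samples). Of 2440 rows with no symbol, 520 received one from a table of gene identifiers. RefSeq positions are of Sscrofa11.1.

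Log2(FPKM + 1) of 3 DAC and 3 sham samples was compared with limma 3.58.1 in R 4.3.3 (linear model, moderated test with a variance trend) for the 11029 genes that reached 1 FPKM in 3 or more samples, which included all 8 members. The pseudocount of 1 understates changes of low genes. DEGs had an unadjusted P under 0.05, as in the study's methods, and the adjusted P is Benjamini-Hochberg over these 11029 genes. Exact permutation tests were two-sided over 20 splits, with a smallest P of 0.1. The labels call the samples of a group independent. Members and lists were chosen with earlier results of these data known. Named are all members, the DEGs and the 3 most abundant genes of each list, and the 5 genes most like the members' profile, with any other named as chosen afterwards. As alternatives, the filter was dropped or raised to 5 FPKM, and the pseudocount was set to 0.1. Others were median scaling, quantile normalization, removal of 13 mitochondrially encoded genes with rescaling, each gene's own variance, sample weights, and leaving out each sample. On simulated data with 11029 genes, 188 of 200 with a log2 change of 1 were called with the right sign and 5.4% of unchanged genes were called. The planted change was larger than the difference of any member, so this rate does not hold for changes of their size. Figures used Python 3.11.15 and matplotlib 3.10.9. No sequence of these genes was used here, and some genes of the pathway are not reported here and are left out of the list counts.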

Additional observations from a re-analysis of the deposited data

How the results depend on the processing

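The number of DEGs was 939, of which 61.9% were downregulated, and was 579 of 6271 genes at a minimum of 5 FPKM, because fewer genes were tested, and 600 to 1029 with 1 sample left out, lowest without sham replicate 1. With median scaling the downregulated share was 52.0%, with quantile normalization 52.9% and 44.8% without mitochondrially encoded genes, and the median of all genes moved from -0.016 to at most 0.02. Of the 8 members, 0 to 1 were called: FDFT1 with each gene's own variance (1 gene, at an unmoderated P of 0.0494) and LSS without sham replicate 2. Only SREBF1, SREBF2, FDFT1 and IDI1 passed 5 FPKM. The members' median lay between -0.21 (without DAC replicate 6) and -0.055 (without DAC replicate 5). Of 108 values of single members under an alternative, 100 kept direction and side of the threshold, 2 came past it and 6 changed sign, all for HMGCS1 and SQLE with 1 sample left out. With 1 sample left out, the log2 difference ranged from -0.049 to 0.095 for HMGCS1, -0.18 to 0.44 for SQLE, -0.76 to 0.13 for TM7SF2, -0.23 to 0.045 for CYP51A1, -0.35 to 0.097 for TMEM97, -0.064 to 0.10 for ACSS2, -0.17 to 0.088 for LPIN1, -0.13 to 0.097 for RXRG, -0.32 to 0.34 for LPCAT3 and -0.050 to 0.19 for COQ7. After quantile normalization RXRG differed by 0.013 and LPCAT3 by 0.014, and LPCAT3 by 0.016 without mitochondrially encoded genes. The cause of these shifts was not tested. Of the lists, the number of DEGs ran from 0 to 1 for the other sterol enzymes, for SREBP escort and degradation, for sterol-regulated targets and for fatty acid synthesis, from 1 to 3 for uptake and transport, from 0 to 2 for efflux (0 at 5 FPKM, where PLTP was not tested) and from 0 to 3 for the non-sterol branches. No paired analysis was run, because different minipigs were assigned at random to the sham and DAC groups and no pairing is named. With 3 minipigs a group and unknown depth, these data cannot exclude changes within the printed intervals. The intervals are of log2(FPKM + 1), so larger fold changes of low genes are not excluded either. With the pseudocount of 0.1, the difference of INSIG1 went from -0.19 to -0.31 and that of LSS from -0.28 to -0.35.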
